A study of Mus musculus with 12 samples.

Results

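The genes described here are megakaryocyte and platelet genes: 31 genes chosen by symbol for their known roles in these cells. Of these, 30 were found in the array annotation, among 18194 genes with a probe set of their own. Gp1ba is not analysed here. Each gene was read from the probe set with its highest mean over all 12 arrays. A total of 24 of the 30 passed a filter on low values, as did 10583 genes in all. The filter kept genes whose mean log2(signal + 32) was at least 6.76, the median of all 45101 probe sets. A gene that passed mainly through a group in which it is high is more likely to differ between groups, so the counts below cover the members that passed and not the whole list.

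RNA of mouse blood cells was hybridised to one-colour Affymetrix arrays in 4 groups of 3 arrays. The groups were Stat5 knockouts with CMP, Stat5 knockouts without CMP, controls with CMP and controls without CMP, where the knockouts lack both Stat5a and Stat5b. The labels speak of treatment with or without CMP but do not define it, and the letters also stand in titles of untreated arrays. Age, strain, the way the genes were removed, the type of blood cell, and whether the arrays of a group came from separate animals are not given in the labels, so the p-values measure the spread between these samples, which may be technical. The sample titles follow 3 patterns, here named sets A, B and C, and each set holds 1 array of every group. The knockout array without CMP of set B is called a control by its treatment protocol. It was grouped by title, and its Stat5a and Stat5b signals were as low as those of the other knockouts (at most 90.1 and 82.8 in the knockouts, at least 660 and 1036 in the controls).

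Megakaryocytes are the large bone marrow cells that shed platelets. They load granules with chemokines and clotting proteins, and they carry the adhesion receptors with which platelets bind von Willebrand factor, fibrinogen and collagen at a wound. Thrombin, ADP and thromboxane then activate platelets through receptors on their surface. Megakaryocytes and red cells arise from a shared precursor, and several of these genes are also active in other blood cells or in endothelium.

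The arrays differed in ways that the groups do not explain. The 3' to 5' signal ratio of the beta-actin control probe sets, read here as a sign of RNA quality, was 4.30 to 5.78 on the log2 scale in the 4 arrays of set B and 0.25 to 2.14 in the 8 others. It was higher with CMP than without it in every set, by 0.24 to 1.63 in knockouts and by 0.59 to 1.35 in controls. The Gapdh ratio was 4.72 to 6.09 in set B and 1.10 to 4.56 in the 8 others, so the highest array of set A nearly reached set B. It was higher with CMP in every pair of arrays except the controls of set B (4.82 with CMP and 4.83 without). Markers of other blood cells were measured beside the platelet genes. The summed signal of 7 erythroid markers was 799 to 2108 in knockouts with CMP, against 5874 to 21777 in knockouts without CMP. In controls it was 1517 to 4598 with CMP, against 7030 to 39959 without CMP, and 4 of the 5 erythroid markers tested fell with CMP in each genotype. The 6 mast cell and basophil markers summed to 2704 to 17903 in knockouts with CMP and 14989 to 21132 without CMP, and to 9225 to 14941 in controls with CMP and 17445 to 22274 without CMP. The 9 granulocyte markers summed to 47608 to 89793 in knockouts with CMP and 55422 to 186921 without CMP, and to 37474 to 189394 in controls with CMP and 47925 to 211324 without CMP. All 9 had estimates below 0 with CMP in both genotypes (medians -0.65 in knockouts and -0.46 in controls), and 2 fell in each. Of 7 endothelial markers 4 passed the filter, and all 7 summed to 472 to 2017 in knockouts with CMP and 1280 to 2489 without CMP, and to 1395 to 1878 in controls with CMP and 1240 to 2390 without CMP. Of the 4 tested, 2 had estimates above 0 and 2 below 0 with CMP in each genotype (medians -0.18 in knockouts and 0.11 in controls). Only Egfl7 was called, and it fell in each genotype, while Cdh5, Emcn and Cldn5 lay below the filter. Of 6 fibroblast and stroma markers 2 passed, none was called, and the sums of all 6 ran from 898 to 3263 over all arrays. The share of any of these in the results below was not tested, and in bulk RNA fewer cells of a type and less RNA per cell cannot be told apart.

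Signals of the same gene were spread widely between arrays, and many differed by naming set. Signals of different probe sets are not on 1 scale, so each member is compared only with itself. The marker sums above do add such signals, so their brightest probe sets weigh most, and some include markers below the filter. Of the 24 members that passed, 20 had their highest mean in set C and 17 their lowest in set B. The same counts were not made over all genes, so they cannot be read as particular to the members. Cd9, Vwf, Itga2b and Gp5 were among 13 members that were highest in set C in all 4 groups. Vwf stood 1.52 log2 units higher in set C than in set A, and Cd9 stood 1.72 higher. Slc14a1, F2r, Plek and Gng11 differed by at most 0.10 between sets C and A. Comparisons were therefore made with the naming set as a block in the fit. The 6 members below the filter were Gp6, Cd226, Thbs1, Ltbp1, P2ry12 and Alox12. Of these, the collagen receptor gene Gp6 gave signals of 6.69 to 68.8, the ADP receptor gene P2ry12 gave 1.96 to 33.7 and the adhesion molecule gene Cd226 gave 0.889 to 24.1. The matrix protein gene Thbs1 (30.9 to 128), Ltbp1 (4.91 to 122), whose product binds latent TGF-beta, and the arachidonate lipoxygenase gene Alox12 (up to 158) crossed the filter's signal of 76.4 in some arrays.

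**Figure D1:**
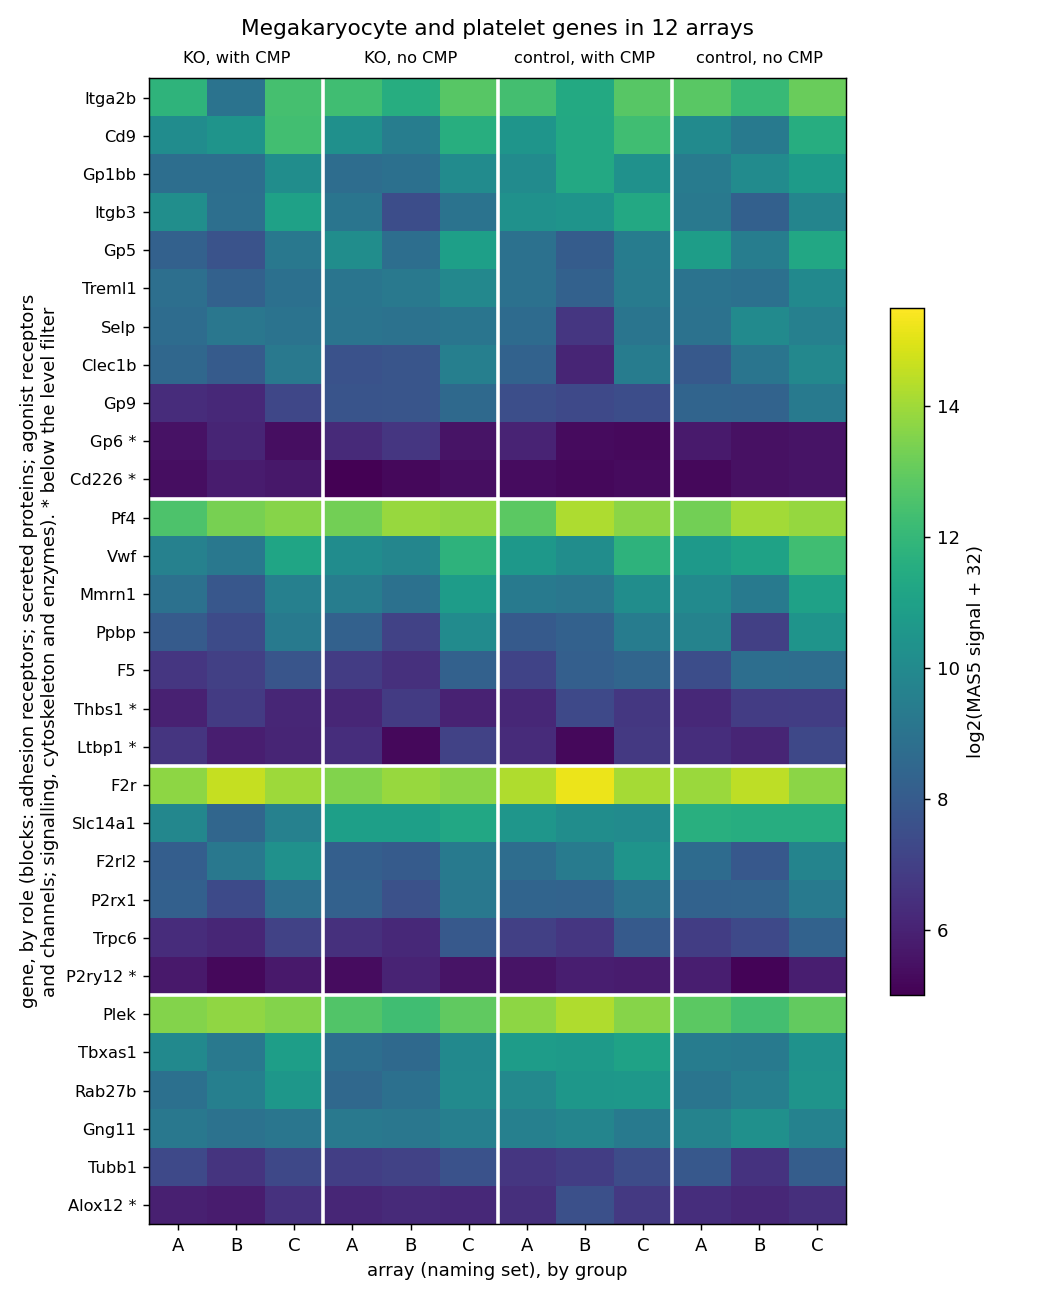
Values of 30 megakaryocyte and platelet genes in 12 arrays, as log2(MAS5 signal + 32) on the colour scale, with genes down the page in blocks by role and arrays across by group and naming set. Pf4, F2r and Plek are bright in all 12 arrays, the 6 starred genes lie below the level filter, and many genes are brightest in the set C columns.

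Arrays with CMP were compared with arrays without CMP, first in the knockouts and then in the controls. In the knockouts 3 of the 24 members rose and 5 fell, so 8 were called (limma adjusted p under 0.05). Of all genes tested 18.8% were called, 9.03% up and 9.72% down. In the controls 4 rose and 3 fell, where 22.1% of all genes were called, 10.6% up and 11.6% down. The median log2 change of the 24 members was -0.19 in knockouts and -0.36 in controls, beside -0.06 and -0.02 over all genes tested. Single arrays moved these medians: in knockouts the median was -0.10 without the set B array with CMP, -0.38 without the set B array without CMP and -0.07 without the set C array without CMP, and in controls it was -0.13 without the set B array without CMP. With the beta-actin ratio in the fit the median was -0.14 in knockouts and -0.07 in controls, where 12 members lay below 0 and 12 above. With the arrays centred on their medians, 3 members rose and 6 fell in each genotype. Of all genes 18.1% were then called in knockouts and 24.8% in controls, with medians of -0.13 and -0.22. At an unadjusted limma p under 0.05, 21.1% of all genes were lower and 12.3% higher in knockouts, and 27.8% and 10.5% in controls. In the knockouts the ranges of the groups with and without CMP were apart for 4 of the 24 members, against 23.6% of all genes, and in the controls for 6, against 25.1%.

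The counts of called members and of all genes both moved when the fit was changed. Without the naming set block 1 member was called in the knockouts, Slc14a1, against 2.82% of all genes, and 2 in the controls, Slc14a1 and Plek, against 4.44%. Without set C, 2 were called in the knockouts and 3 in the controls, against 3.36% and 5.4% of all genes. Without set B, 10 were called in each genotype, against 25.0% and 29.0%. With the beta-actin ratio in the fit 5 were called in each genotype, against 6.14% of all genes in knockouts and 14.4% in controls.

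The adhesion receptor genes moved in both directions. Platelets bind von Willebrand factor through the GPIb-IX-V complex, of which Gp5, Gp9 and Gp1bb encode subunits. Gp5 had signals of 273, 176 and 561 in knockouts with CMP (sets A, B and C, the order used throughout), against 1092, 407 and 1892 in knockouts without CMP. In controls it had 454, 232 and 657 with CMP, against 1815, 670.2 and 2487 without CMP. Gp5 was lower with CMP in every set of both genotypes, and in the controls the 2 groups did not overlap. It fell by 1.55 ± 0.22 log2 units in knockouts (SE, n = 3; limma adjusted p = 0.00104) and by 1.74 ± 0.22 in controls (limma adjusted p = 0.000474). Gp9 had 48.6, 41.6 and 118 in knockouts with CMP, against 177, 185 and 348 in knockouts without CMP. In controls Gp9 had 149.6, 126 and 147 with CMP, against 301, 295 and 599.9 without CMP. The groups with and without CMP did not overlap in either genotype. Gp9 fell by 1.43 ± 0.25 in knockouts and by 1.25 ± 0.25 in controls (limma adjusted p = 0.00331 and 0.00512), and the size depended on the constant added before the logarithm, with -0.98 and -1.84 in knockouts for constants of 100 and 1. Gp1bb, their partner subunit, was not called. Its change was 0.02 ± 0.36 in knockouts and 0.50 ± 0.36 in controls (limma adjusted p = 0.977 and 0.35), though Gp1bb was called in controls when the control array with CMP of set C was left out, at 1.03 (adjusted p = 0.0466).

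The fibrinogen receptor is a pair of Itga2b, the integrin alpha IIb subunit that marks the lineage, and Itgb3, its beta 3 partner, which other integrins also use. Itgb3 had 1119, 423 and 2025 in knockouts with CMP, against 515, 149 and 475 in knockouts without CMP. In controls it had 1223, 1342 and 2550.3 with CMP, against 581, 269 and 834 without CMP. Itgb3 was higher with CMP in every set, with ranges apart in the controls and overlapping in the knockouts, by 1.48 ± 0.30 log2 units in knockouts and 1.60 ± 0.30 in controls (SE, n = 3; limma adjusted p = 0.00739 and 0.00395). Itga2b had 3597, 484 and 5457 in knockouts with CMP, against 4960.2, 2929.6 and 6869.5 in knockouts without CMP. In controls Itga2b had 5246, 2654 and 7023 with CMP, against 7107, 4236 and 8806 without CMP. All 6 differences were below 0, but Itga2b did not pass, at -1.10 ± 0.38 in knockouts and -0.48 ± 0.38 in controls (limma adjusted p = 0.0622 and 0.397). The knockout array with CMP of set B, at 484, lay apart from the other 11, which were 2654 or more. Without set C the calls of Gp5 (adjusted p = 0.0543), Gp9 (0.0604) and Itgb3 (0.152) in knockouts, and those of Gp9 (0.158) and Itgb3 (0.0602) in controls, were lost. No single array ended them.

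Of the other adhesion genes, Treml1 fell in knockouts and Cd9 rose in controls. Treml1, a receptor stored in platelet granules, had 422, 274 and 438 in knockouts with CMP, against 508, 579.9 and 914 without CMP, with no overlap. Its change was -0.75 ± 0.24 in knockouts (limma adjusted p = 0.0458) and -0.44 ± 0.24 in controls (adjusted p = 0.205), where it had 452, 273 and 637 with CMP and 482, 442 and 980.2 without CMP. The Treml1 call was lost without any 1 of 10 of the 12 arrays, with adjusted p up to 0.181. The 2 exceptions were the knockout with CMP of set A and the control with CMP of set B. Cd9, a tetraspanin of platelets and many other cells, had 1397, 2557 and 4930.1 in controls with CMP, against 1001, 611 and 2954 without CMP. In knockouts it had 1058, 1342 and 5118 with CMP, against 1209.9, 664 and 3046 without CMP. The groups overlapped, with set C highest in each, and the change was 0.51 ± 0.30 in knockouts and 1.07 ± 0.30 in controls (limma adjusted p = 0.254 and 0.0251). The Cd9 call in controls was lost without the control with CMP of set B (0.116) or the control without CMP of set B (0.132) or set C (0.0698). The genes of P-selectin, Selp, and of the podoplanin receptor, Clec1b, each had 1 low array, the control with CMP of set B. Selp had 393, 547 and 482 in knockouts with CMP, 495, 464 and 504 in knockouts without CMP, 379, 69.4 and 508 in controls with CMP and 472, 1013 and 723 in controls without CMP. Clec1b had 327, 229 and 577 in knockouts with CMP, 167, 187 and 699 in knockouts without CMP, 287, 35.2 and 639 in controls with CMP and 216, 503 and 924 in controls without CMP. Neither gene was called, with changes of -1.38 ± 0.49 and -1.05 ± 0.49 in controls (limma adjusted p = 0.0616 and 0.143). The 2 other probe sets of Selp gave 333 to 544 in the controls with CMP, so 1 of its 3 probe sets had the low value.

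The 5 genes of secreted and granule proteins had estimates below 0 with CMP in both genotypes, and 1 was called. Mmrn1, whose product multimerin 1 carries factor V in platelets, had 458, 199 and 734 in knockouts with CMP, against 673, 452 and 1743 without CMP. In controls Mmrn1 had 603, 538 and 1098 with CMP, against 1018, 585 and 2002 without CMP. It was lower with CMP in every set, by 0.93 ± 0.23 in knockouts (SE, n = 3; limma adjusted p = 0.017) and by 0.56 ± 0.23 in controls (adjusted p = 0.101). The Mmrn1 call was lost without the knockout with CMP of set C (0.0559) or the knockout without CMP of set C (0.0985). Pf4, the chemokine platelet factor 4, had 6119.9, 10510.4 and 12178 in knockouts with CMP, against 9683, 14855 and 13694 without CMP, and was at -0.44 ± 0.16 (adjusted p = 0.0728). In controls Pf4 had 7432, 18781 and 13147 with CMP, against 9778, 16781 and 14593 without CMP, a change of -0.13 ± 0.16 (adjusted p = 0.607). Vwf, the gene of von Willebrand factor, which endothelium also makes, was at -0.57 ± 0.21 and -0.48 ± 0.21 in knockouts and controls (adjusted p = 0.0777 and 0.122). The chemokine gene Ppbp and the clotting factor gene F5 were at -0.24 ± 0.44 and -0.07 ± 0.34 in knockouts, and at -0.48 ± 0.44 and -0.43 ± 0.34 in controls, none called.

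Among receptors and channels, Slc14a1 fell. It encodes a urea transporter that red cells carry as well. Its signals were 893, 322 and 742 in knockouts with CMP, against 1939, 1939 and 2512 without CMP. In controls they were 1429.9, 1093 and 1052 with CMP, against 3112, 2989 and 2941 without CMP. The groups did not overlap in either genotype, and the gene fell by 1.76 ± 0.27 in knockouts and 1.33 ± 0.27 in controls (SE, n = 3; limma adjusted p = 0.00141 and 0.00529). Its other probe set changed by -1.81 ± 0.25 and -1.90 ± 0.25. The call in controls was lost without set C (0.0798) and in a fit that also held the beta-actin ratio (0.0595). The erythroid marker sum was lower in the same arrays, as given above, and its part in the fall of Slc14a1 was not tested. The thrombin receptor gene F2r was at 0.40 ± 0.16 and 0.48 ± 0.16 (adjusted p = 0.106 and 0.0534), and F2rl2, the gene of a thrombin receptor that acts as a cofactor on mouse platelets, at 0.72 ± 0.31 and 0.76 ± 0.31 (adjusted p = 0.123 and 0.0992). P2rx1, an ATP-gated channel, and Trpc6, a calcium channel, were at -0.23 ± 0.25 and -0.36 ± 0.26 in knockouts and were not called in either genotype.

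Plek and Tbxas1 rose in both genotypes. Plek encodes pleckstrin, the main protein kinase C substrate of platelets, which is also made in other white blood cells. It had 12142, 14006 and 11884 in knockouts with CMP, against 6427, 5012 and 7859.6 without CMP. In controls it had 13312, 19189 and 12229.5 with CMP, against 7395, 5285 and 7992 without CMP. The groups did not overlap, and the rises were 0.995 ± 0.22 and 1.10 ± 0.22 (SE, n = 3; limma adjusted p = 0.0113 and 0.00547). Its 2 other probe sets rose by 0.93 and 1.58 in knockouts and by 1.17 and 1.62 in controls. The call in knockouts was lost without the array of conflicting labels (0.0631) and, in a fit that also held the beta-actin ratio, both calls were lost (0.129 in knockouts and 0.0563 in controls). Tbxas1, thromboxane synthase, which macrophages also express, had 974, 574 and 1852 in knockouts with CMP, against 409.7, 352 and 969 without CMP. In controls it had 1732, 1644 and 2074 with CMP, against 657, 597 and 1272 without CMP, with no overlap. It rose by 0.92 ± 0.25 and 1.15 ± 0.25 (adjusted p = 0.0241 and 0.00683). The call of Tbxas1 in knockouts was lost without the set A array with (0.078) or without CMP (0.0916), the set B array without CMP (0.0863) or the set C array with CMP (0.0924). Of 5 monocyte and macrophage markers tested, Cd14 rose in both genotypes and the others were not called. Estimates were above 0 for 2 and below 0 for 3 in knockouts (median -0.08). In controls they were above 0 for 4 and below 0 for 1 (median 0.46). The 6 markers measured summed to 12306 to 27851 in knockouts with CMP and 9291 to 15285 without CMP, and to 6509 to 12984 in controls with CMP and 4885 to 10790 without CMP. Their part in these rises was not tested. Rab27b, which docks dense granules, was at 0.50 ± 0.24 and 0.68 ± 0.24 (adjusted p = 0.162 and 0.0584). The platelet tubulin gene Tubb1 and the G protein gene Gng11 were not called.

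**Figure D2:**
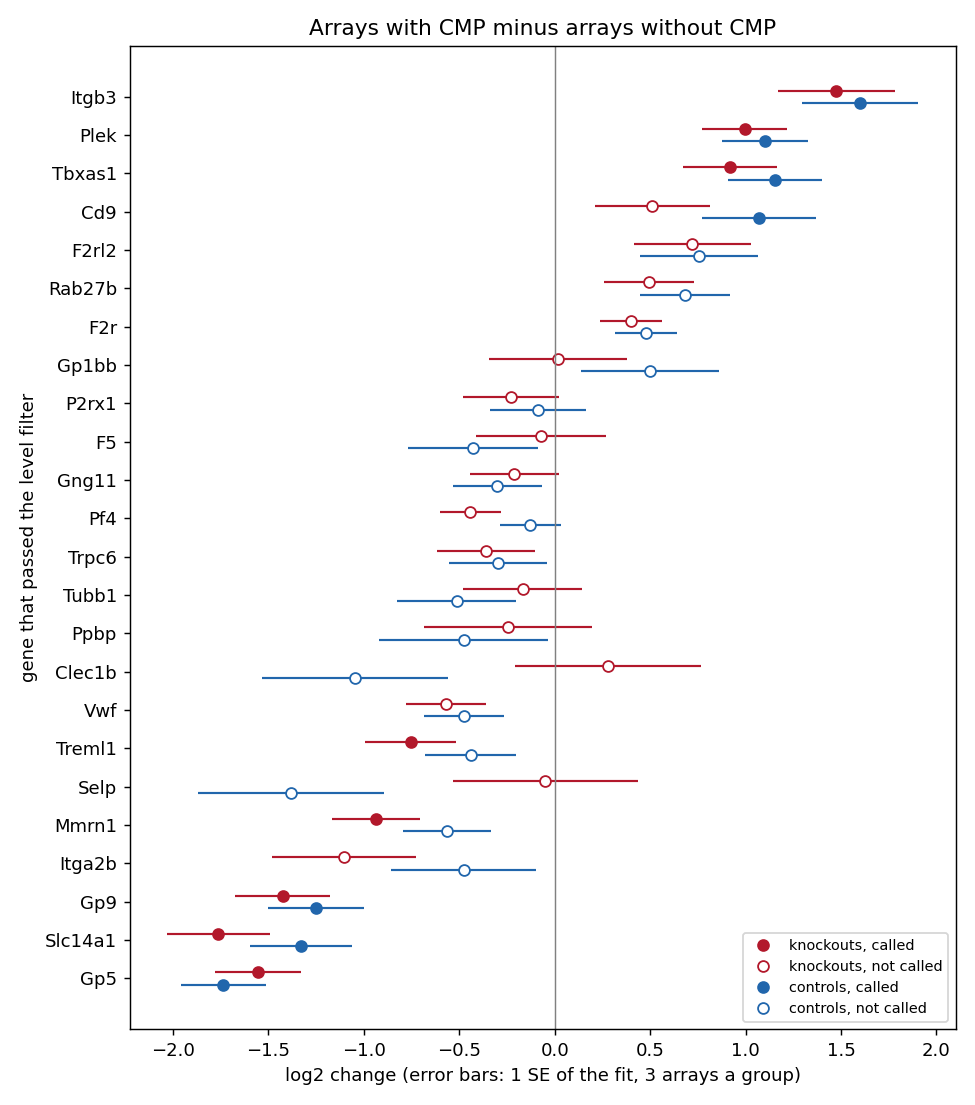
Log2 change with CMP against without CMP for the 24 members that passed the level filter, with knockouts in red above controls in blue, error bars of 1 SE, and filled points for calls at a limma adjusted p under 0.05. Itgb3, Plek and Tbxas1 lie above 0 and Gp5, Gp9 and Slc14a1 below 0 with filled points in both genotypes.

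**Figure D3:**
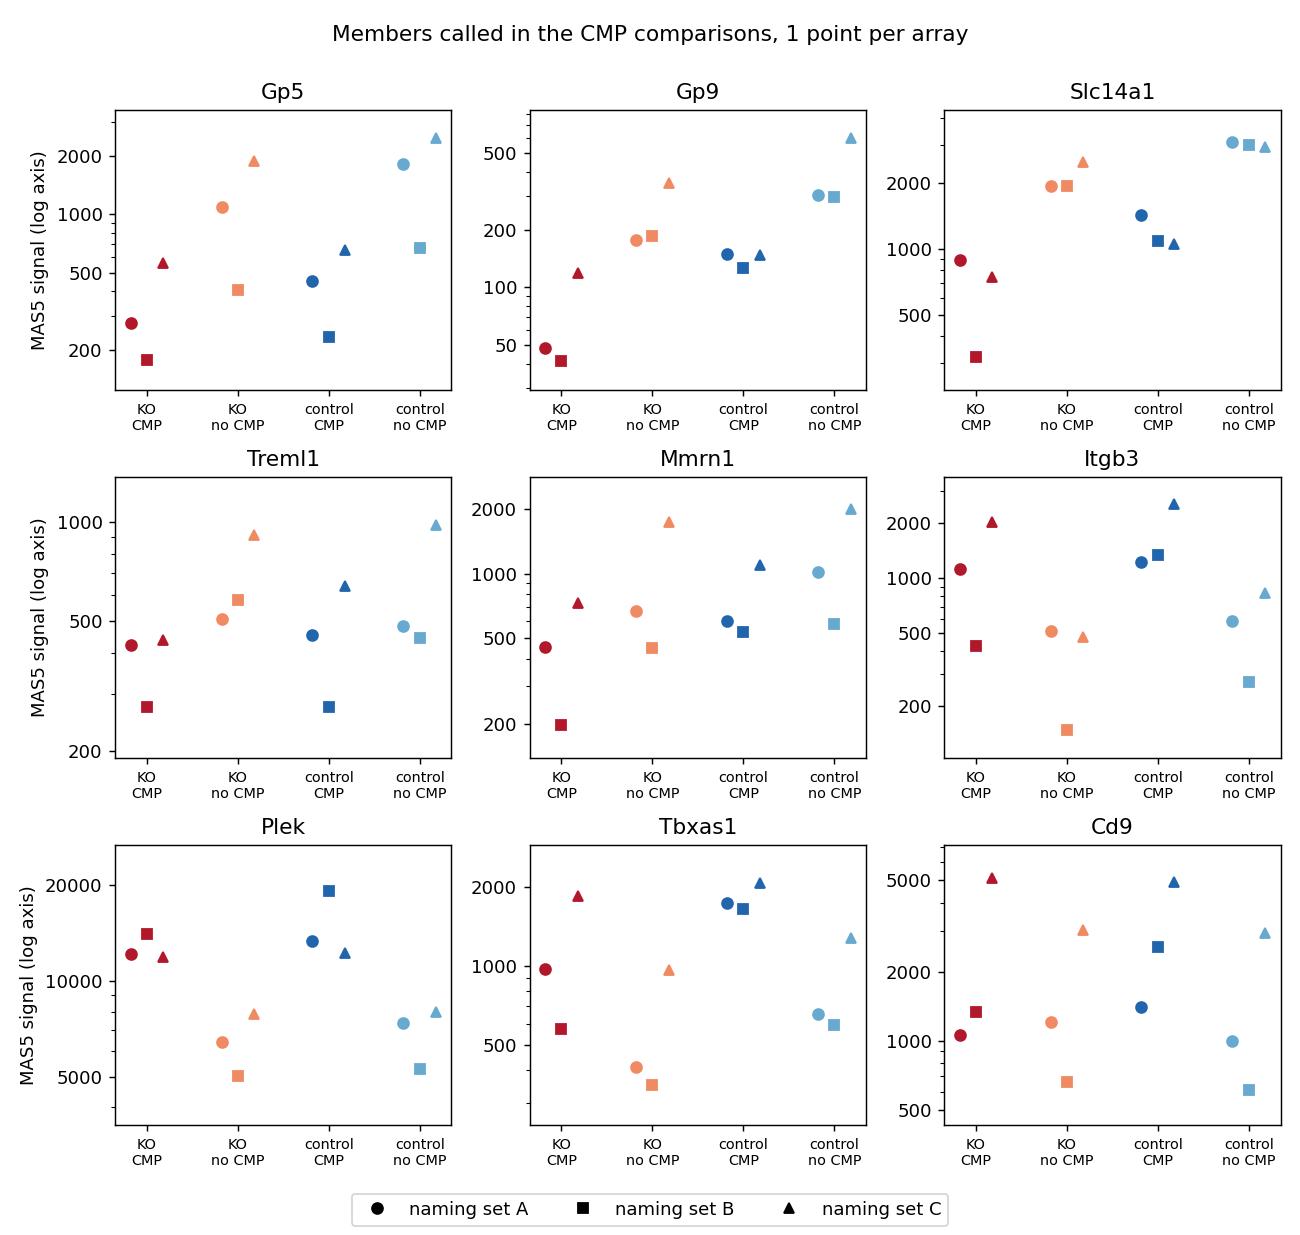
MAS5 signals of the 9 members called in either CMP comparison, on log axes with 1 point per array, by group along the x axis and by naming set as the marker shape. Within a set, Gp5, Gp9 and Slc14a1 are lower with CMP than without it, and Itgb3, Plek and Tbxas1 are higher, in knockouts and in controls.

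The bases before the start of 4 members are shown because these genes moved in different ways: Gp5 fell, Plek rose, and Pf4 and Itga2b were not called. Each stretch holds the 250 bases before the start in the RefSeq table (build GRCm38.p6), read 5' to 3' on the gene's strand. Capitals mark GATA or its reverse complement TATC, the core letters bound by GATA factors, which drive many megakaryocyte genes. Gp5 lies on the minus strand (chr16:30310782-30311031), as does Plek (chr11:17008719-17008968). Pf4 lies on the plus strand (chr5:90772185-90772434) and Itga2b on the minus strand (chr11:102469884-102470133).
Gp5: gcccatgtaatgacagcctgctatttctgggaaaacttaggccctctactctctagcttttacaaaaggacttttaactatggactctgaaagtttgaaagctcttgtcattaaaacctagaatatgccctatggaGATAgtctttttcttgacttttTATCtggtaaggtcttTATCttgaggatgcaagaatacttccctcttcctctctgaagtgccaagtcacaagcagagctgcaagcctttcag
Plek: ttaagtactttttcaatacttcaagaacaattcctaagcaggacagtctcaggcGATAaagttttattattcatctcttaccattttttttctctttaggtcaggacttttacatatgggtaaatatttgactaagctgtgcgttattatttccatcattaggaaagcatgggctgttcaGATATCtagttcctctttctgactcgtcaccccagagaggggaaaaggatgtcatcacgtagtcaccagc
Pf4: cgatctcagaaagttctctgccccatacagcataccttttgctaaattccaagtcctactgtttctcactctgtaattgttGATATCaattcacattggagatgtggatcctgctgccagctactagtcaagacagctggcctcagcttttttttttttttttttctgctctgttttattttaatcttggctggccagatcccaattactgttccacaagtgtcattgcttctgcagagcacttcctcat
Itga2b: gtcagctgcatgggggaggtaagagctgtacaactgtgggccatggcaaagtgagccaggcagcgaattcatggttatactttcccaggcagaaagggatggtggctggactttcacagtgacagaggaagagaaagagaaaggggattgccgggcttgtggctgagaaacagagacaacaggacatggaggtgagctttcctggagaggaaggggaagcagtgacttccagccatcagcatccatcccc
GATA was found on either strand before 15 of the 23 members that the RefSeq table holds (65.2%), and before 54.1% of all 27025 genes in it. Gp5 and Plek each held 3 such matches and Itga2b held none. GGAAG, a core bound by ETS factors, was before 17 of 23 (73.9%), and before 63.6% of all genes. The STAT core TTCNNNGAA was before 1 of 23, Gp5 (4.35%), and before 7.18% of all genes. A match is a description of letters, not of binding.

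Knockouts were compared with controls, with CMP and without CMP. No member was called in either comparison, where 0.0189% of all genes tested were called, Stat5a and Stat5b in each. The estimates of the members nevertheless lay mostly on 1 side. With CMP, 21 of 24 were lower in knockouts, against 54.6% of all genes, and 18 were lower in all 3 naming sets, against 18.5% of all genes. At an unadjusted p under 0.05, 13 were lower and 0 higher, where 5.38% of all genes were lower and 4.43% higher. Without CMP, 22 of 24 were lower in knockouts, against 52.8% of all genes, and 17 in all 3 sets, against 18.1%. At this p, 9 were lower and 0 higher, where 1.5% of all genes were lower and 0.86% higher. The median log2 difference was -0.45 with CMP and -0.51 without CMP, beside -0.04 and -0.01 over all genes. These counts describe the arrays, with no test of the list. The beta-actin ratio of knockouts minus controls had both signs across the sets, at -0.39 to 0.71 with CMP and -0.45 to 0.43 without CMP. Without set B, 22 and 23 of 24 were lower, against 48.2% and 55.2% of all genes. With the arrays centred on their medians 21 and 22 of 24 were lower, where 34.2% and 41.0% of all genes were. The median of all genes was then 0.15 and 0.05. In each comparison 7 members were lower at an unadjusted p under 0.05, against 2.00% and 0.98% of all genes. Without the block 3 and 0 members were lower at an unadjusted p under 0.05, against 1.46% and 0.35% of all genes. Single arrays moved the counts at this p. With CMP the 13 became 7 without the control of set B (1.56% of all genes lower) and 8 without the knockout of set A (8.28%). Without CMP the 9 became 4 (1.55% of all genes lower) and 5 (1.51%) without the knockout and the control of set A. They became 3 (0.88%) and 5 (0.47%) without those of set B, and 3 (1.72%) without the control of set C. Without all of set A the counts were 7 with CMP and 2 without, against 4.52% and 0.83% of all genes. In a fit of only the groups compared they were 11 and 15, against 2.63% and 4.32% of all genes. With the array of conflicting labels taken as a control, 21 of 24 were lower without CMP, against 54.6% of all genes. At an unadjusted p under 0.05, 0 members were then lower, against 0.69% of all genes.

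Vwf had the smallest p of the members in both comparisons. Its signals were 758, 551 and 2309.6 in knockouts with CMP, against 1512, 1109 and 3504 in controls with CMP. Without CMP they were 1063, 884 and 3482 in knockouts, against 1557, 2108 and 4909 in controls. Vwf was lower in the knockout of all 6 pairs of the same set and CMP label, but the ranges of the groups overlapped, with set C highest in each. The difference was -0.84 ± 0.21 with CMP and -0.75 ± 0.21 without CMP (SE, n = 3; limma adjusted p = 0.47 and 1). Gp1bb had 417, 409 and 1106 in knockouts with CMP, against 1027, 2543 and 1241 in controls with CMP. Without CMP it had 398, 442 and 1031 in knockouts, against 635, 1039.7 and 1688 in controls. All 6 differences were below 0, at -1.32 ± 0.36 and -0.83 ± 0.36 (adjusted p = 0.507 and 1), and in the arrays with CMP of set C the gap was small. The other probe set of Gp1bb differed less, by -0.20 ± 0.34 with CMP and -0.32 ± 0.34 without CMP. F5, the gene of clotting factor V, had 86.2, 55.9 and 278 in knockouts without CMP, against 146, 411 and 398 in controls without CMP. With CMP it had 68.5, 94.1 and 188 in knockouts, against 105, 260.2 and 316 in controls. F5 was at -1.13 ± 0.34 without CMP and -0.77 ± 0.34 with CMP (adjusted p = 1 and 0.507), again lower in all 6 pairs. The other probe set of F5 also differed less, by -0.46 ± 0.24 without CMP and -0.34 ± 0.24 with CMP.

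The ranges of knockouts and controls were apart for 3 members with CMP (Gp9, Slc14a1 and Gng11), against 5.66% of all genes, and for 2 without CMP (Slc14a1 and Gng11), against 4.32%. The Slc14a1 signals given above reached 893 in knockouts with CMP, against 1052 or more in controls with CMP, and 2512 in knockouts without CMP, against 2941 or more in controls without CMP. Its differences were -0.94 ± 0.27 and -0.50 ± 0.27 (adjusted p = 0.507 and 1). The other probe set of Slc14a1 overlapped between genotypes. It gave 125 to 551 in knockouts and 165 to 783 in controls with CMP, and 638 to 2547 and 1014 to 2473 without CMP. The differences of that probe set were -0.34 ± 0.25 with CMP and -0.42 ± 0.25 without CMP. Gng11, a G protein gamma subunit of platelets and other cells, had 556, 459.6 and 527 in knockouts with CMP, against 733, 848 and 619 in controls with CMP. Without CMP it had 568, 535 and 704 in knockouts, against 791, 1197 and 779 in controls. Its differences were -0.48 ± 0.23 and -0.57 ± 0.23 (adjusted p = 0.507 and 1). Gp9 (-0.84 ± 0.25 and -0.66 ± 0.25), Gp5 (-0.41 ± 0.22 and -0.59 ± 0.22) and Itga2b (-1.09 ± 0.38 and -0.47 ± 0.38) were likewise lower in knockouts in all 6 pairs without passing the test. For Itga2b with CMP the differences in sets A, B and C were -0.54, -2.38 and -0.36, and the knockout array of set B was the low one given above. Pf4 was also lower in all 6 pairs, at -0.41 ± 0.16 with CMP and -0.09 ± 0.16 without CMP. Estimates above 0 were those of Selp, Clec1b and Tubb1 with CMP and of Treml1 and Cd9 without CMP. The differences of Selp and Clec1b with CMP rest on the low control array of set B, as their differences in sets A and C were 0.05 and -0.07 and 0.17 and -0.14. All 5 erythroid markers tested also had estimates below 0 in both comparisons, from -0.01 for Rhd to -1.78 for Ermap with CMP and from -0.37 for Epor to -1.05 for Ermap without CMP, none called. Of the 5 monocyte and macrophage markers tested, 3 were above 0 with CMP (median 0.25) and 4 without CMP (median 0.74, 3 at an unadjusted p under 0.05), none called, and their sums are given above. Of the 4 endothelial markers tested, 3 were below 0 in both comparisons (medians -0.31 with CMP and -0.30 without CMP). Of the 9 granulocyte markers, 5 were below 0 in both (medians -0.58 and -0.05). The 6 mast cell and basophil markers had 4 below 0 with CMP and 3 without CMP (medians -0.21 and -0.07). None of these was called. The part of any of these markers in the members' differences was not tested.

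**Figure D4:**
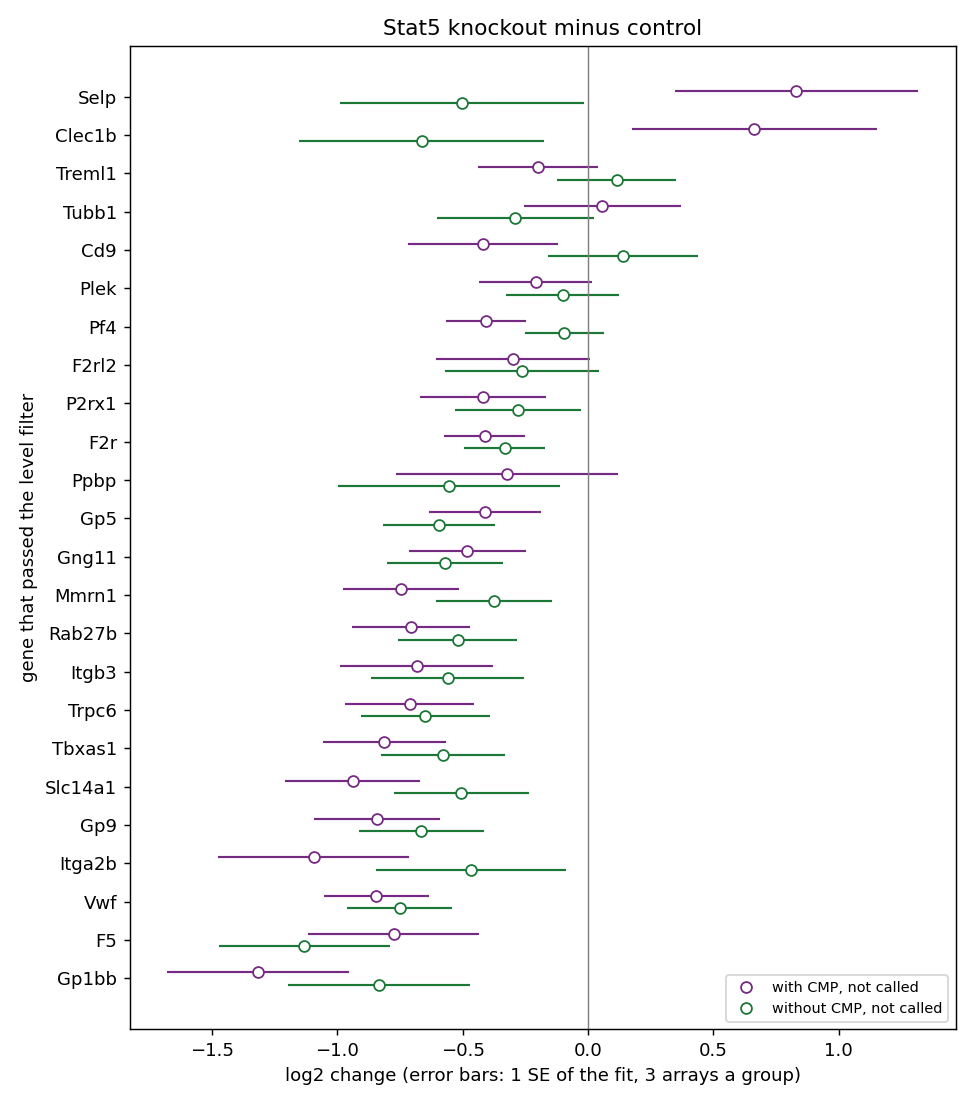
Log2 difference of knockouts against controls for the 24 members that passed the level filter, with CMP in purple above without CMP in green and error bars of 1 SE. All points are open because none was called, and 21 of 24 with CMP and 22 of 24 without CMP lie below 0.

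The interaction asked whether the change with CMP differed between the genotypes. No member was called and none had an unadjusted p under 0.05 in limma, in a comparison that called 0% of all genes. The median over the 24 members was -0.12, beside -0.02 over all genes. For the members called in both genotypes the interaction was 0.18 ± 0.32 for Gp5, -0.18 ± 0.35 for Gp9, -0.43 ± 0.38 for Slc14a1, -0.12 ± 0.43 for Itgb3, -0.11 ± 0.32 for Plek and -0.23 ± 0.35 for Tbxas1 (SE, n = 3; adjusted p of 0.954 or above). Treml1 and Mmrn1, called only in knockouts, had interactions of -0.31 ± 0.34 and -0.37 ± 0.33, and Cd9, called only in controls, of -0.56 ± 0.42, so no difference between genotypes was shown for them. The smallest p were those of Selp and Clec1b (1.33 ± 0.69 and 1.33 ± 0.69), for which set B gave 3.59 and 3.25 and set A gave -0.01 and 0.49. Pf4 came next, at -0.31 ± 0.23, with all 3 sets below 0.

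Further megakaryocyte and platelet genes were taken from 5 lists. Their counts with CMP stand against 9.03% of all genes up and 9.72% down in knockouts, and 10.6% up and 11.6% down in controls. The share called per list was 13.3% to 23.1% in knockouts and 13.3% to 30.8% in controls, where 18.8% and 22.1% of all genes were called. Among 29 tested receptor and signalling genes, 6 rose and 0 fell in knockouts, and 8 rose and 0 fell in controls. Ptgir, the prostacyclin receptor that restrains platelets, rose by 2.53 ± 0.34 in knockouts and 1.88 ± 0.34 in controls (SE, n = 3; limma adjusted p = 0.000832 and 0.00318). Fyn, a Src family kinase, rose by 1.19 ± 0.23 and 1.78 ± 0.23, and Gucy1b1, a subunit of the nitric oxide receptor, by 1.24 ± 0.30 and 1.43 ± 0.30. Among 18 cytoskeletal genes, 2 rose and 2 fell in knockouts, and 3 rose and 2 fell in controls. Tuba8, an alpha tubulin, fell by 2.22 ± 0.25 and 2.46 ± 0.25, and Stom, a membrane protein of red cells and platelets, by 0.99 ± 0.21 and 1.39 ± 0.21, while Myh9, the platelet nonmuscle myosin, rose by 0.70 ± 0.19 and 1.16 ± 0.19. Among 26 genes of granule building and release, 2 rose and 2 fell in knockouts, and 2 rose and 3 fell in controls. Slc35d3, needed for dense granules in mice, rose by 2.69 ± 0.46 and 2.10 ± 0.46, and Rab38 fell by 0.96 ± 0.18 and 1.17 ± 0.18. Stx11, a fusion protein, rose by 1.16 ± 0.27 in knockouts and was at 0.74 ± 0.27 in controls (adjusted p = 0.0726). Among 13 further cargo genes, 2 rose and 1 fell in knockouts, and 3 rose and 1 fell in controls. The growth factor genes Vegfa (1.65 ± 0.26 and 1.24 ± 0.26) and Pdgfb (1.23 ± 0.32 and 1.95 ± 0.32) rose, and F13a1, the clotting factor XIII subunit, fell (-1.49 ± 0.38 and -1.96 ± 0.38). Among 15 transcription factor genes, 1 rose and 1 fell in knockouts, and 2 rose and 0 fell in controls. Gata1 fell by 1.51 ± 0.38 in knockouts (adjusted p = 0.018) and was at -1.06 ± 0.38 in controls (adjusted p = 0.0635). Mafg, a partner of the megakaryocyte factor NF-E2, rose by 1.37 ± 0.34 and 1.87 ± 0.34, and Gfi1b, a repressor in megakaryocytes and red cells, rose by 1.65 ± 0.36 in controls and was at 0.91 ± 0.36 in knockouts (adjusted p = 0.0996). None of these genes was called between knockouts and controls.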

How the data were processed

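The data are 12 one-colour arrays. Each probe set has 1 deposited intensity, a MAS5 signal on a linear scale computed by the authors, per the submitters' processing notes. Every array had the same trimmed mean of 500, and this scaling was kept. Probe sets were named from the platform annotation (34958 with 1 symbol, 932 with several, 9211 unnamed; 34754 found by gene number in the GRCm38.p6 table). A constant of 32 was added before log2.

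A single limma model (version 3.58.1, R 4.3.3, eBayes with a trend) had terms for group and naming set, leaving 6 residual degrees of freedom beside a prior of 5.78. Two-sided p-values were adjusted by Benjamini-Hochberg over 10583 genes. Changes are differences on the log2(signal + 32) scale, errors are standard errors of the fit, and called means an adjusted p under 0.05. Deviations from the group means correlated at 0.41 to 0.77 within a naming set and at -0.64 to 0.28 between sets, so the set was kept as a block.

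The members and lists were chosen with earlier results of these data known. Members called, and the 3 with the smallest p in each comparison, are given by array. Up to 3 genes with the smallest p were named from each further list. In simulated data with independent normal noise, 100 of 10583 genes were raised 2-fold and 100 others 4-fold. The fit found 42 to 47 and 91 to 95 of these in the comparisons of 2 groups, and 4 and 58 in the interaction. Recovery after adjustment depends on how many genes change, so these counts need not hold for the comparisons of the real arrays. Precision is limited by the number of arrays.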

Additional observations from a re-analysis of the deposited data

Results flagged for a closer look

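Cd226 was the member whose difference between knockouts and controls had opposite signs with and without CMP in every naming set. Its signals were 10.4, 24.1 and 19.4 in knockouts with CMP, against 8.91, 5.63 and 7.06 in controls with CMP. Without CMP they were 0.889, 5.43 and 10.4 in knockouts, against 5.47, 12.7 and 15.1 in controls. The interaction was 0.54 ± 0.23 on the log2 scale in a fit without the level filter (unadjusted p = 0.0377, adjusted p = 0.975). All 12 signals lay below the filter's level of 76.4, so the gene was not tested in the main comparison.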

How the results depend on the processing

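In the knockouts 8 members and 18.8% of all genes were called. There were 1 member (2.82% of all genes) without the naming set as a replicate block, 4 (9.18%) with the array of conflicting labels as a control, 5 (6.14%) when the fit also held the beta-actin ratio and 5 (6.26%) in a fit of only the groups compared. In the controls 7 (22.1%) were called, 2 (4.44%) without the replicate block and 5 (14.4%) with the beta-actin ratio. With arrays or whole naming sets left out the count ran between 2 and 10 in the knockouts and between 3 and 11 in the controls. In the knockouts it was 2 (3.36%) without set C, 4 (6.42%) without set A and 5 (9.45%) without the array of conflicting labels. In the controls it was 3 (5.4%) without set C, 11 (14.2%) without the control with CMP of set C and 11 (32.6%) without the knockout with CMP of set B. Constants of 1 and 100, no filter, a stricter filter, median centring, quantile normalization, the mean of all probe sets and array weights gave 7 to 11 and 7 to 10. Under these last settings the share of all genes called also moved, from 8.49% to 37.9% in knockouts and from 10.8% to 39.2% in controls. Among them it was lowest without the filter and highest with array weights, which also gave the largest counts of members among them. No member was called between knockouts and controls or in the interaction under any alternative run, and no called member changed sign. Slc14a1 in knockouts was called in all 27 alternatives, Gp5 in controls in 26, and Treml1 in knockouts in 9. Signals near the array medians of 59.7 to 114, as of Gp9 and Trpc6, limit the size of a fold that can be read.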

Other observations

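Several members lie side by side in the genome (build GRCm38.p6) yet differed in their values. Ppbp and Pf4, both chemokines, are 2371 bases apart on chromosome 5. Ppbp signals were spread 13.9-fold between the lowest and the highest array and Pf4 signals 3.07-fold, and Pf4 was highest in set B, where Ppbp was lowest. Selp and F5 are 1808 bases apart on chromosome 1. Without CMP, F5 was lower in knockouts in all 3 sets, while Selp was at 0.06, -1.07 and -0.49 in sets A, B and C.

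The 2 probe sets of F2r gave different answers. The brighter one, with signals of 11488 to 37538, changed with CMP by 0.40 ± 0.16 in knockouts and 0.48 ± 0.16 in controls and was not called. The other gave 3026 to 7323 in knockouts with CMP, against 1470.1 to 2511 in knockouts without CMP, and 5779 to 6884 in controls with CMP, against 2899 to 4074 in controls without CMP. In a fit over 22551 probe sets it rose by 1.38 ± 0.27 in knockouts and 0.87 ± 0.27 in controls (limma adjusted p = 0.00711 and 0.0416). Why they differ was not tested.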
